A study of Mus musculus with 8 samples.

Results

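Immediate early genes are transcribed within minutes of a signal reaching a cell, without new protein synthesis, and many of them encode transcription factors. The 10 genes described here were taken by symbol from the deposited table of kidney transcripts. They are Jun, Junb and Jund, Fos, Fosb and Fosl2, Egr1 and Egr2, Atf3 and Ier2. All 10 were among the 23337 genes listed. Of these, 8 had a mean normalised read count of at least 10 over the libraries and were tested, while Fosb and Egr2 fell below that level and are given by their values.

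Kidneys came from E13.5 mouse embryos of the strain background C57BL/6 (mixed), bred from Foxd1Cre(Smo+/-) and Smo(flox/flox) parents. Control kidneys were Smo(flox/+), with one floxed and one wild type copy of Smo, the gene of the hedgehog signal transducer Smoothened. Mutant kidneys were Foxd1Cre;Smo(flox/-), with a floxed copy, a null copy and Cre recombinase under Foxd1, a gene of renal stromal progenitors, so both groups carried a floxed allele, and the labels name Cre and the null allele in the mutants alone. Recombination is thus limited to cells that have expressed the driver, while the null copy is in every cell of the mutants. No treatment was given, and each group held 4 libraries of whole kidney RNA. Whether each numbered sample is a separate embryo or a pool is not stated. Each group held libraries of both sexes by the Y-linked gene Ddx3y, so not all samples of a group were the same material. How much of the spread behind the p-values is technical is not known.

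Jun and Fos proteins pair through leucine zippers to form the dimeric factor AP-1, which binds the DNA sequence TGACTCA. Atf3 belongs to the same wider family of leucine zipper factors and can pair with Jun, Egr proteins bind DNA through zinc fingers, and Ier2 is a small nuclear protein induced by growth factors. In many tissues these genes are quiet at rest and rise briefly when growth factors, stress or handling of the tissue activate kinases such as ERK and JNK. Jund is the member best known for steady expression in resting cells.

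The start regions of 4 AP-1 genes are printed, namely Jun, which held the motif TGACATCA, and 3 others that held TGACG. Whether a motif bears on the differences in expression below was not tested. RefSeq promoter windows on GRCm38.p6 were used for 8 of the 10 members, all but Egr1 and Ier2, each from 250 bases before to 50 bases after the start of the gene. The 150 bases just before the start are shown, 5′ to 3′ on the strand of the gene, with capitals marking TGACATCA in Jun and TGACG in the others.

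Jun (chr4:95052223-95052372, minus strand): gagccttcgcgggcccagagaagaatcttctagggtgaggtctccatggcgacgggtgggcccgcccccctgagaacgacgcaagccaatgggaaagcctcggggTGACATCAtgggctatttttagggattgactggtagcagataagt

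Fos (chr12:85473740-85473889, plus strand): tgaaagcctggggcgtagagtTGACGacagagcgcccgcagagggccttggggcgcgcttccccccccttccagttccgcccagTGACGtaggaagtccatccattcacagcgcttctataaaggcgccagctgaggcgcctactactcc

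Junb (chr8:84978749-84978898, minus strand): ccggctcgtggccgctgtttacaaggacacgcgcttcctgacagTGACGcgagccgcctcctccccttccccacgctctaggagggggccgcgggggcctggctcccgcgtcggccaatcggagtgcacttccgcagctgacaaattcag

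Fosb (chr7:19310046-19310195, minus strand): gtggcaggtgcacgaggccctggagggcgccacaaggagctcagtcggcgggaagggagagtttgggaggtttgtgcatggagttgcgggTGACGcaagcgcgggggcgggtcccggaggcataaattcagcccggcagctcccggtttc

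In Jun the sequence TGACATCA, a variant AP-1 site known from the Jun promoter, began 45 bases before the start. Among the 8 members with a window, Jun alone held it, and 3.62% of all 32851 windows did so. TGACG, the first part of the cyclic AMP response element TGACGTCA, was found in 5 members, namely Fos, Fosb, Junb, Egr2 and Atf3, and in 20.8% of all windows. The windows of the AP-1 genes Jund and Fosl2 held neither TGACATCA nor TGACG. In Fos TGACG occurred 66 and 129 bases before the start, in Fosb 60 and in Junb 106 bases before it. Neither TGACTCA nor TGACGTCA was found in a window of any of these 8 members, against 5.20% and 1.79% of all windows. The CArG box, the site of serum response factor, was found in 1.63% of all windows. Among the 8 members searched, it was found in windows of Egr2 alone. Bases farther from the start than the windows reach were not searched, and neither were Egr1 and Ier2. These matches therefore cannot show that a member lacks the CArG box or another of these motifs. Both strands were searched, every TGACGTCA also contains TGACG, and a match describes these letters only.

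Libraries held 10288191 to 13494079 reads in genes. Smo checked the labels. It lay between 2152 and 2294 normalised read counts in controls and between 509 and 553 in mutants, so every library matched its group. Markers of the nephron progenitors, the renal stroma and the ureteric bud were present in all libraries, with all 12 genes of each list tested. Control 2 and mutant 2 carried the most skeletal muscle RNA, with summed levels of 3163 and 1861 over 12 markers against 132 to 556 in the other 6 libraries. By the Y-linked gene Ddx3y, control 4 and mutant 2 were male and the others female.

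Levels per length set the members apart from each other. Normalised read counts were divided by the exon length of each gene in GENCODE vM21 and are given as mean ± SD over all 8 libraries. Jund was the highest at 857 ± 48.8 per kb, followed by Ier2 at 297 ± 17.01 and Jun at 195 ± 30.2. None of these 3 overlapped its neighbour in any library. Egr1 (59.9 ± 9.54 per kb) and Fosl2 (55.5 ± 6.12 per kb) came next and overlapped each other, as did Atf3 (17.004 ± 4.28 per kb) and Junb (16.9 ± 2.12 per kb). Fos was at 5.43 ± 0.645 per kb, Egr2 at 2.20 ± 0.751 per kb and Fosb at 0.320 ± 0.169 per kb. The lowest levels thus belonged to Fos, Egr2 and Fosb and the highest to Jund. The lengths include stretches shared with a gene on the opposite strand, 52.6% of the exon length for Jund, 7.28% for Jun and 7.52% for Junb. Reads from such stretches may not be told apart, so the levels per kb of these 3, above all Jund, are less certain.

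**Figure D1:**
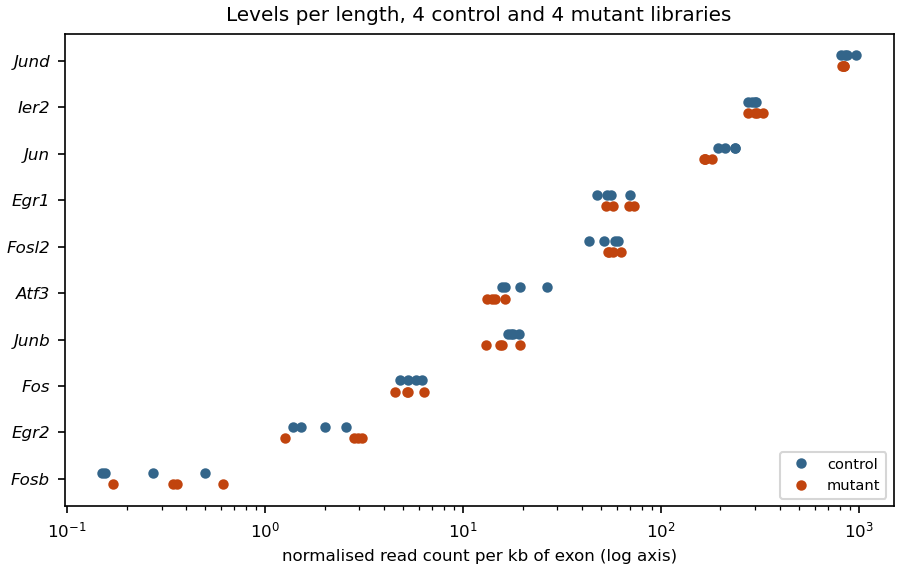
Normalised read count per kb of exon (log axis) for each member, one point per library, blue for 4 control and orange for 4 mutant libraries. Jund stands at 857 per kb on average and Fosb at 0.320 per kb, while Egr1 with Fosl2 and Atf3 with Junb overlap.

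Among the Jun genes, Jun was lower in mutant kidneys. Jun encodes c-Jun, the main partner of Fos in AP-1 and a substrate of the JNK kinases. Its normalised read counts were 617, 755, 756 and 673 in controls 1 to 4 and 535, 535, 524 and 576 in mutants 1 to 4. Every mutant library lay under every control library, with control 1 and mutant 4 nearest to each other. The mean fell from 700.04 ± 67.7 to 542 ± 22.8 (SD, n = 4 each), or 77.5% of the control level. On the log2(normalised read count + 1) scale the mutant minus control difference was -0.36 (SE 0.068, 95% confidence interval -0.51 to -0.21, limma adjusted p = 0.0430). That interval spans 70.1% to 86.2% of control. An exact two-sided permutation test of Jun alone gave p = 0.0286, the smallest value that the 70 arrangements of 4 against 4 allow. Any gene whose groups do not overlap gives this value, as 5.31% of all tested genes would. The p therefore adds nothing to the lack of overlap.

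**Figure D2:**
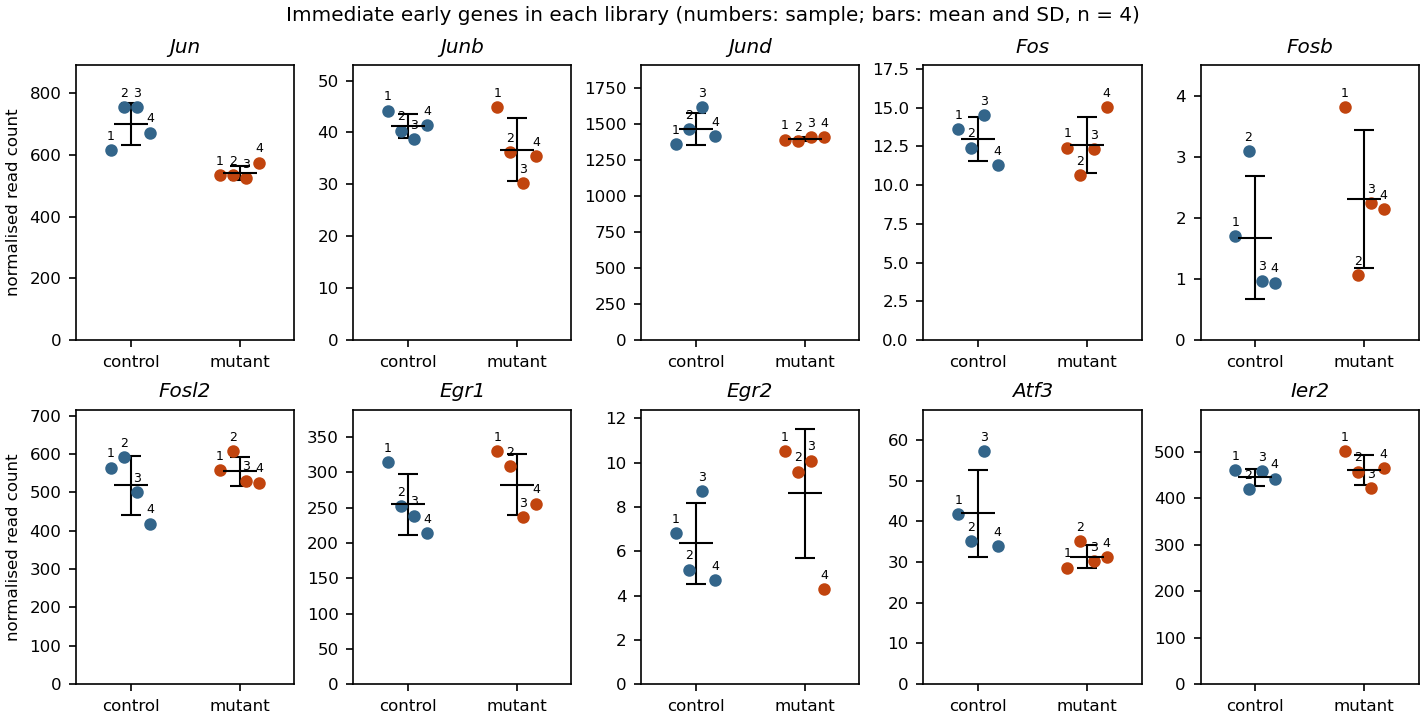
Normalised read count (linear axis from 0) of each of the 10 members in 4 control and 4 mutant libraries, numbered by sample, with bars for the mean and SD (n = 4). Jun is the one panel in which all mutants (524 to 576) lie below all controls (617 to 756).

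Jun was thus 1 of 8 tested members called at an adjusted p under 0.05, the other 7 being not called. Over all 13692 genes tested, 78 (0.570%) were called, 61 of them lower (0.446%) and 17 higher (0.124%). Among the 78 calls Jun ranked 71 by p, and its difference ranked 56 by size. Groups did not overlap for Jun alone among the 8 tested members, against 5.31% of all tested genes, and Jun alone had an unadjusted p under 0.05, against 8.70% of all tested genes. The members' median difference was -0.05, with 5 negative and 3 positive, and the median of all genes was 0.0037.

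The call of Jun was close to the threshold. The test on recovered reads by edgeR also called Jun and none of the other 7 (adjusted p = 0.0437, with 0.577% of genes called), and so did DESeq2 (adjusted p = 0.0013, with 1.56% of genes called). In the authors' deposited table Jun had a log2 ratio of -0.37 and an adjusted p of 0.0054, and every other member an adjusted p of 1. Leaving out one library at a time kept the Jun difference between -0.42 and -0.33. The call was lost without control 2 (adjusted p = 0.133), control 3 (0.150), mutant 1 (0.130), mutant 2 (0.126) or mutant 3 (0.158), and was kept without control 1, control 4 or mutant 4. Among the 6 female libraries alone, a setting chosen after seeing the data, the Jun difference was -0.37 (adjusted p = 0.0726), and the male libraries were a single pair, control 4 at 673 and mutant 2 at 535 normalised read counts.

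**Figure D3:**
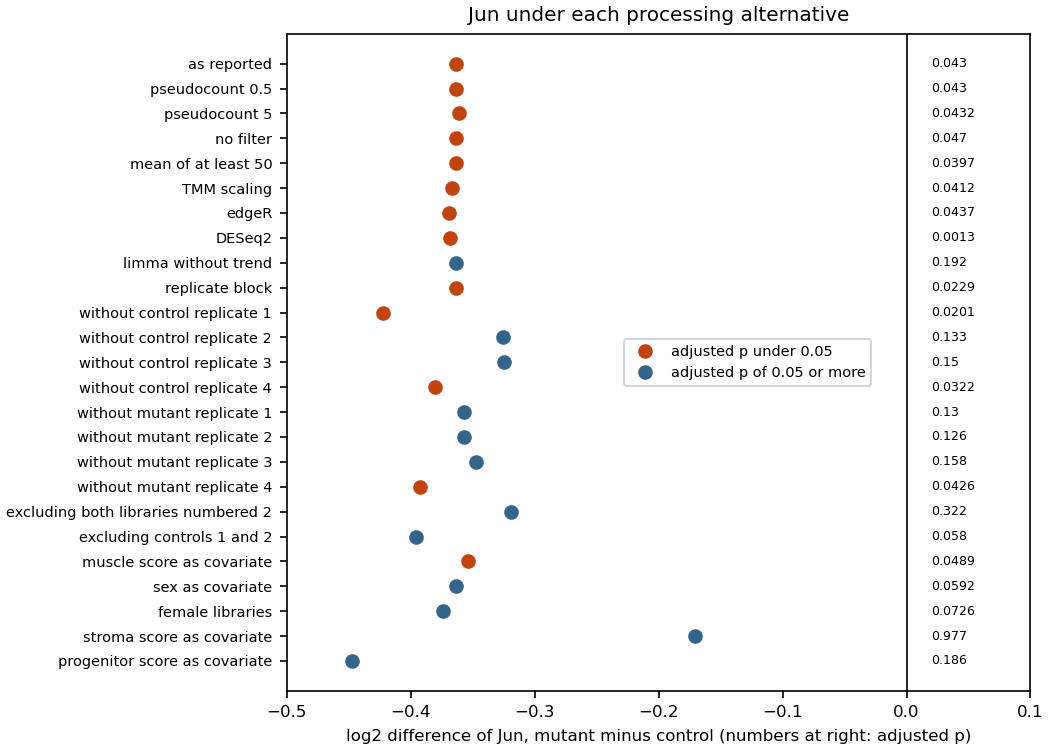
Difference of Jun, mutant minus control on the log2 scale, under each processing alternative, orange where the adjusted p (printed at right) was under 0.05. All points lie below 0, from -0.45 to -0.17, and 13 of the 25 values, the reported one included, are orange.

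In bulk tissue, fewer cells of a type and less RNA per cell cannot be told apart, and some markers of kidney cell types differed between the groups beside Jun. Summed levels of 12 renal stroma markers were 24999 to 28212 in controls and 20279 to 24595 in mutants. Of these 12, 2 were lower (Foxd1 and Smoc2, adjusted p = 0.0251 and 0.0325), against 0.446% of all tested genes. Among the 12, 9 had negative differences and none was at 0. The differences ran from -1.29 for Foxd1 to 0.11 for Tbx18, and those of Tcf21 and Meis2 were 0.02 each. Foxd1 is also the driver of Cre, which the labels name in the mutants alone. Whether the Cre allele itself alters the level of Foxd1, and with it the levels of this list, was not tested. Summed levels of 12 nephron progenitor markers were 13417 to 15448 in controls and 16581 to 17415 in mutants. Of these markers 2 were higher (Spock2 and Itga8, adjusted p = 0.0064 and 0.0126), against 0.124% of all tested genes. The marker lists were chosen with earlier results of these data known. With the mean log2 level of the stroma list as a covariate, also chosen after seeing the data, the Jun difference was -0.17 (adjusted p = 0.977) and 1 gene in all was called. Genotype accounted for 79.7% of the variance of that stroma level, so the covariate and the genotype cannot be told apart in 8 libraries. With the nephron progenitor level as the covariate the Jun difference was -0.45 (adjusted p = 0.186). Genotype accounted for 82.5% of the variance of that progenitor level, so it and the genotype cannot be told apart either. Macrophage markers also lay lower on the whole (11 of 11 differences negative, none called, summed levels 652 to 1218 in controls and 462 to 809 in mutants), and their part in the level of Jun was not tested. Endothelial markers (12 tested, 9 with negative differences) had summed levels of 6814 to 8003 in controls and 5923 to 7601 in mutants. All 11 tested skeletal muscle markers had negative differences too. Neither of these lists held a called gene. Of all tested genes, 48.1% had negative differences.

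Jund and Junb did not pass. Jund, which can hold cells back from dividing where Jun promotes it, stood at 1357, 1462, 1616 and 1413 normalised read counts in controls and 1390, 1379, 1406 and 1409 in mutants. The controls spread wider than the mutants and the groups overlapped (log2 difference -0.06, SE 0.050, 95% confidence interval -0.17 to 0.05, limma adjusted p = 0.814). For Junb, an AP-1 subunit that often opposes Jun, the values were 44.2, 40.3, 38.8 and 41.4 in controls and 44.9, 36.2, 30.2 and 35.4 in mutants. Mutant 1 held the highest and mutant 3 the lowest level of all 8, and the log2 difference was -0.17 (95% confidence interval -0.53 to 0.18, limma adjusted p = 0.844). Between 27 and 52 reads stood behind each Junb value.

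Whether Jun moved apart from the other members was asked from the log2 ratio of Jun to each of the other 7 tested members in each library, a comparison chosen after seeing the data. The ratio of Jun to Jund went from -1.06 ± 0.079 in controls to -1.36 ± 0.055 in mutants without overlap, a difference of -0.30 (exact two-sided permutation p = 0.0286, adjusted p = 0.10 over 7 ratios). The ratio of Jun to Ier2 also fell without overlap, by 0.41 (exact permutation p = 0.0286, adjusted p = 0.10). Differences were -0.19 against Junb, -0.32 against Fos, -0.47 against Fosl2 and -0.52 against Egr1 (exact permutation p from 0.0571 to 0.286). Against Atf3 the difference was 0.02 (exact permutation p = 0.943). None of the 7 passed after adjustment. With 4 libraries a group, a ratio at the smallest possible p could not pass unless most of the others reached it too, and Jun was taken as the numerator because it was the called member, so whether Jun moved apart from the others cannot be read from these ratios.

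Among the Fos genes no difference passed the test. Fos, the classical immediate early gene and partner of Jun, was at 13.6, 12.4, 14.5 and 11.3 normalised read counts in controls and 12.4, 10.6, 12.3 and 15.0 in mutants. These rest on 10 to 16 reads a library, and mutant 4 was the highest and mutant 2 the lowest. The log2 difference was -0.04 with a 95% confidence interval of -0.57 to 0.49 (limma adjusted p = 0.982), which spans 67.2% to 141% of control, so a moderate change of Fos was not detectable at this depth. Fosb, a close relative of Fos, had 1 to 4 reads in each library (0.94 to 3.10 normalised in controls, 1.06 to 3.82 in mutants) and was not tested.

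Fosl2, which encodes the Fos relative Fra-2, was the only Fos gene with a high level. It stood at 565, 591, 501 and 418 normalised read counts in controls and 558, 607, 531 and 525 in mutants. Control 4 was the lowest and mutant 2 the highest of all 8, these being the male libraries, and the groups overlapped (log2 difference 0.11, 95% confidence interval -0.11 to 0.32, limma adjusted p = 0.837). Among the female libraries, which leave out both of these, the Fosl2 difference had the opposite sign (-0.035, adjusted p = 0.888).

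Egr1, a zinc finger factor induced through ERK and serum response factor, stood at 314, 252, 238 and 213 normalised read counts in controls and 329, 309, 236 and 256 in mutants. Samples 1 were the highest of both groups, control 4 was the lowest, and the groups overlapped. The log2 difference was 0.15 (SE 0.130, 95% confidence interval -0.13 to 0.44, limma adjusted p = 0.825). Egr2, known for its part in hindbrain patterning and nerve myelination, had 4 to 11 reads a library, 4.70 to 8.72 normalised in controls and 4.30 to 10.5 in mutants. Among mutants, number 4 alone was at 4.30 while the other 3 lay between 9.58 and 10.5.

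Atf3, a stress-induced repressor and activator, had the largest negative difference of the 8 but was not called. Its normalised read counts were 41.7, 35.1, 57.2 and 33.8 in controls and 28.6, 35.1, 30.2 and 31.1 in mutants. Control 3 stood above all others and mutant 2 overlapped the controls (log2 difference -0.38, SE 0.193, 95% confidence interval -0.81 to 0.04, limma adjusted p = 0.636). Each value rests on 27 to 59 reads. Ier2 stood at 460, 420, 457 and 442 normalised read counts in controls and 500.4, 457, 421 and 464 in mutants, with overlapping groups and a log2 difference of 0.05 (95% confidence interval -0.09 to 0.18, limma adjusted p = 0.899).

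**Figure D4:**
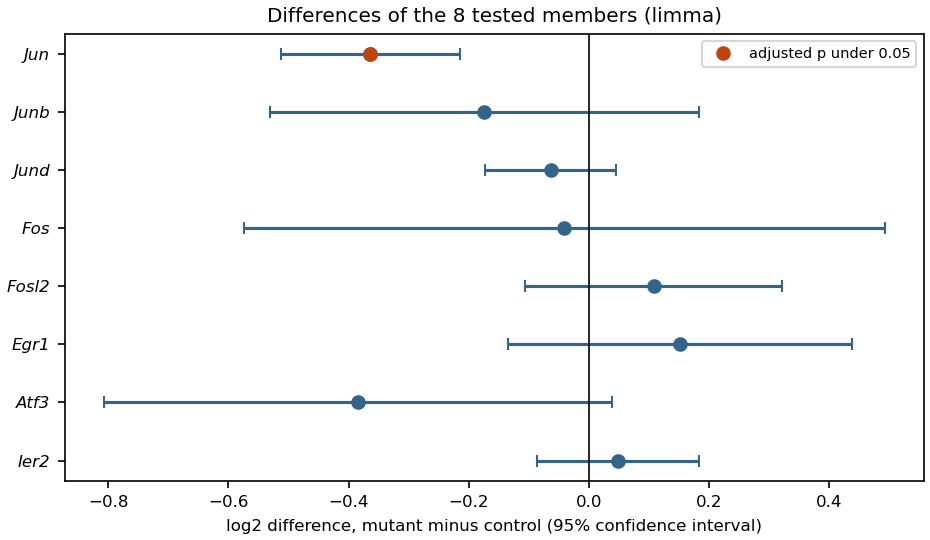
Difference of each of the 8 tested members, mutant minus control on the log2 scale, with 95% confidence intervals from limma and the called gene in orange. The interval of Jun (-0.51 to -0.21) lies below 0, and the other 7 include 0.

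Between libraries, Fos, Fosb, Egr2 and Junb varied no more than counting alone would give, and the other 6 members varied more. The coefficient of variation over all 8 libraries was 11.9% for Fos, where counting error alone gives 27.9%, and 12.5% for Junb against 15.9%. It was 15.5% for Jun against 3.99%, 15.9% for Egr1 against 6.07% and 5.72% for Ier2 against 4.68%. These values take both genotypes together, so that of Jun includes the gap between the groups. The excess over counting error was not tested, and for Ier2 it was small. At 10 to 16 reads a library, relations of Fos with other members could hardly have shown, and they are given as values. Over the 8 libraries Pearson's r of Fos with the other 9 ran from -0.25 (Egr2) to 0.41 (Jund), and 3 of the 9 were negative. For Jund, Spearman's rho was 0.21, with exact permutation p = 0.332 for r and 0.619 for rho (adjusted p = 0.975 and 0.791 over 9 relations). The highest rho was that of Ier2 at 0.60 (exact permutation p = 0.132, adjusted p = 0.791), where r was 0.20 (exact permutation p = 0.629, adjusted p = 0.975). Without control 3 and mutant 4, the libraries with Fos farthest from its median, r was -0.14 with Jund, 0.06 with Ier2, 0.32 with Junb and 0.55 with Fosb. No pair had a p under 0.05.

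By the mean centred log2 level of the 8 tested members, libraries ran from -0.14 in mutant 3 to 0.14 in control 3, with the groups overlapping. The 8 genes outside the list whose pattern was most like that level over the 8 libraries were Fam115a, Slc39a8, Arhgap23, Tcf23, Fam58b, Stat3, Twsg1 and Shroom4, with Pearson's r from 0.98 to 0.95. These were the highest of 13684 correlations over few libraries and are given as a description. Stat3, a cytokine-activated transcription factor, stood at 419, 393, 432 and 368 normalised read counts in controls and 404, 364, 348 and 382 in mutants, and its groups overlapped.

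A wider list of 43 further immediate early genes showed no called gene. Of these, 37 were tested and 6 lay below the level tested, namely Fosl1, Egr3, Egr4, Nr4a3, Npas4 and Ptgs2, each with a mean of no more than 9.13 normalised read counts. By limma 0 of 37 passed over all genes and 7 had an unadjusted p under 0.05, 5 lower and 2 higher, against 8.70% of all tested genes. edgeR also called none and DESeq2 called Klf4. Groups did not overlap for 3 of the 37 (Klf4, Ier5 and Zfp36), against 5.31% of all tested genes. The median difference of the 37 was -0.02, with 21 negative and 16 positive.

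**Figure D5:**
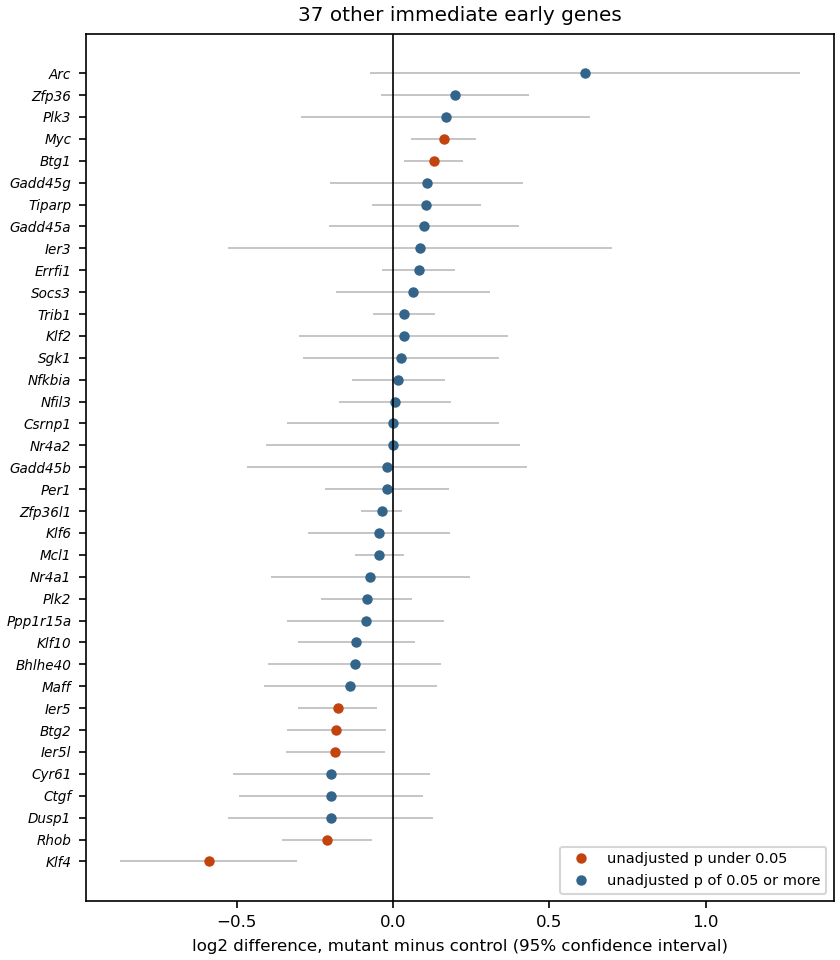
Difference of each of 37 further immediate early genes, mutant minus control on the log2 scale, with 95% confidence intervals from limma, orange where the unadjusted p was under 0.05. Klf4 at -0.59 lies lowest, Arc at 0.61 highest, and 21 of the 37 are negative.

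Klf4, a zinc finger factor of epithelial and vascular cells, came nearest. It stood at 315, 282, 306 and 295 normalised read counts in controls and 174, 201, 166 and 267 in mutants. All mutants lay below all controls and mutant 4 was nearest to them (log2 difference -0.59, SE 0.129, limma adjusted p = 0.0869). DESeq2 called Klf4 (adjusted p = 0.0057), and limma did without mutant 4 (adjusted p = 0.0067). With the stroma level as a covariate the Klf4 difference was -0.17 (adjusted p = 0.977), where stroma and genotype again cannot be told apart. The next smallest p-values belonged to Myc, a growth regulator (0.16, adjusted p = 0.219), Rhob, a small GTPase (-0.21, adjusted p = 0.264), and Ier5 (-0.18, adjusted p = 0.303). For Dusp1, the phosphatase that switches off JNK and p38, the log2 difference was -0.20 (adjusted p = 0.807), and for Nr4a1, an orphan nuclear receptor, it was -0.07 (adjusted p = 0.943).

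Partners, kinases and feedback genes around AP-1 were likewise not called by limma. Of 17 tested bZIP partners none passed and 2 had an unadjusted p under 0.05, near the 8.70% of all tested genes. Batf3, a partner of Jun in immune cells, stood at 45.9, 42.4, 45.5 and 41.4 normalised read counts in controls and 32.5, 24.5, 30.2 and 26.8 in mutants, with no overlap (log2 difference -0.61, adjusted p = 0.155). Maf, a factor of several lineages including macrophages, had a log2 difference of -0.43 (adjusted p = 0.111), and Crem, a cyclic AMP-responsive factor, one of -0.19 (adjusted p = 0.636). Of 21 tested kinases and serum response factors, including the JNK genes Mapk8 and Mapk9, none passed and 2 had an unadjusted p under 0.05, again near 8.70%. These 2 were the ribosomal S6 kinase gene Rps6ka3 (0.15, adjusted p = 0.290) and the ERK kinase gene Map2k2 (0.11, adjusted p = 0.361).

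Dual specificity phosphatases and feedback inhibitors of ERK formed a further list, with no member passing the test. It includes Dusp1 (-0.20), the phosphatase of JNK and p38 named above, so its counts are not of ERK feedback alone. Of 16 tested phosphatase and feedback genes, 11 had positive differences, with a median of 0.10, none was called and 6 had an unadjusted p under 0.05, 5 of them higher, against 8.70% of all tested genes. Spry1, which restrains FGF and GDNF signalling in the kidney, stood at 892, 892, 843 and 829 normalised read counts in controls and 1130, 1083, 977 and 978 in mutants. Every mutant lay above every control, with a log2 difference of 0.27 (SE 0.055, adjusted p = 0.0656). Dusp4 (0.24, adjusted p = 0.207) and Spry2 (0.22, adjusted p = 0.337) had positive differences too, and Dusp8 a negative one (-0.86, adjusted p = 0.492). Of 12 ureteric bud markers, 11 had positive differences and 8 had an unadjusted p under 0.05, against 8.70% of all tested genes. By the test 1 was higher (Gfra1, a GDNF receptor gene, 0.31, adjusted p = 0.0424), against 0.124% of all tested genes. Summed levels of these markers were 9603 to 11499 in controls and 10564 to 13255 in mutants. Their part in the levels of the feedback genes was not tested.

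Genes of heat shock and the unfolded protein response, which cells raise under protein stress, were measured beside Atf3 and the other stress-induced members. Of 15 tested none was called, 1 had an unadjusted p under 0.05 (Trib3, -0.64, adjusted p = 0.551), and the median difference was -0.01. Their summed levels were 84091 to 92870 in controls and 87842 to 94808 in mutants, so the groups overlapped. Hspa8 averaged 35508 in controls and 36932 in mutants, and Trib3 14.1 and 8.93. The sums thus follow the most abundant genes and say little about the others. Of 8 tested Egr targets and corepressors none was called and Sphk1 alone had an unadjusted p under 0.05 (0.50, adjusted p = 0.551). The corepressor genes Nab1 and Nab2 had log2 differences of -0.07 and -0.02.

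Exons of 3 members overlapped another gene on the opposite strand in GENCODE vM21. These were Jun with Junos over 232 bases (7.28% of its exon length), Junb with Prdx2 over 173 bases (7.52%) and Jund with Gm11175 over 877 bases (52.6%). The use of strand in counting is known here only from the abbreviation Unstr in the name of the data, so reads from such stretches may not be told apart. Jun itself is a gene of 1 exon on chromosome 4 from 95049034 to 95052222 of GRCm38, on the minus strand.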

How the data were processed

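RNA was poly(A)-selected from 500 ng per library, per the labels' protocols. The submitters' processing notes name mm10 (GRCm38), TopHat2 2.0.12, DESeq2 1.4.5 and HTSeq, and no annotation. The authors deposited signal values per library that are read counts divided by a size factor. All were whole multiples of the library's smallest value (100% within 0.01 read), so reads were recovered. The deposited ratio (fold change), its log2 and the p-values were copied, not recomputed.

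A gene entered the test when its mean reached 10, and tests ran on log2(value + 1) by limma 3.58.1 with an intensity trend (R 4.3.3), genotype alone, two-sided, with Benjamini-Hochberg adjustment at 0.05. Alternatives used edgeR 4.0.16 (quasi-likelihood) and DESeq2 1.42.0 on recovered reads. The steps were tested on simulated data. Library pairs within groups differed beyond sampling noise (chi-square/df of 2.90 to 11.0).

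Members and lists were chosen with earlier results of these data known. Named genes were the members, Smo, called list genes, up to 4 list genes with the smallest p, and the 8 most like the members. Arc, Zfp36, Dusp1, Tbx18, Tcf21, Meis2, Nr4a1, Mapk8, Nab1 and Nab2 were named outside that rule, after their values were seen. Figures used matplotlib 3.10.9.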

Additional observations from a re-analysis of the deposited data

Results flagged for a closer look

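Egr2 in mutant 4 stood at 4.30 normalised read counts, far below 9.58 to 10.5 in the other 3 mutants. The value rests on 4 reads against 9 to 11. It was the single library that stood far from the rest among 22 groups of 4 tested (the 10 members and Smo in both genotypes), where chance gives about 1.1.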

How the results depend on the processing

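Jun kept its negative difference in all 24 alternatives and its call in 12. Of the 10 members, the 1 called became 0 in limma without the intensity trend, with sex or the stroma or progenitor level as a covariate, without both libraries numbered 2, without controls 1 and 2, and in the female libraries, and ranged from 0 to 1 with single libraries left out. Adjusted p-values of Jun there were 0.192 without the trend, 0.0592 with sex, 0.322 without both libraries numbered 2 and 0.0580 without controls 1 and 2. It was kept with the muscle level as a covariate (0.0489). The further early genes had 1 call, Klf4, by DESeq2 and with the replicate block, and 0 to 1 with single libraries left out.

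Calls over all genes numbered 214 by DESeq2, 4 without the trend, 232 with the replicate block, 2 without both libraries numbered 2, 29 without controls 1 and 2, 146 in the female libraries, 1 with the stroma level, and 18 to 185 with single libraries left out. Jun passed with the replicate block (adjusted p = 0.0229). Deviations of same-numbered libraries correlated at 0.32, 0.29, 0.29 and 0.064, so the numbers were not taken as pairs. Numbers 1 to 3 each correlated best with their own, as a hint from the data and not the design, and number 4 correlated better with number 3 than with its own.

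None of the other members was called in any alternative (smallest adjusted p = 0.0770, Fosl2 with the progenitor level). Signs turned with the stroma level for Jund (0.057), Fos (0.37), Fosl2 (-0.064), Egr1 (-0.37) and Ier2 (-0.062), with the progenitor level for Junb (0.066) and Fos (0.072), in the female libraries for Fosl2 (-0.035), and without both libraries numbered 2 for Fos (0.013). Fos ranged from -0.12 to 0.031 with single libraries left out, above 0 without control 3 or mutant 2. The cause was not tested. With the progenitor level the difference of Egr1 was 0.76 (adjusted p = 0.142) and that of Fosl2 was 0.63 (adjusted p = 0.0770). The progenitor level and the genotype cannot be told apart here, as with the stroma level. Depth limits Fos, Fosb and Egr2, with at most 16 reads a library.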
